A study of Mus musculus with 24 samples.

Results

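Livers without the constitutive androstane receptor (CAR) were compared after treatment with either of 2 CAR ligands and after corn oil. The comparison took in 6 of the 24 arrays of the series: 2 from knockout mice given TCPOBOP and 2 from knockout mice given CITCO, 4 ligand arrays in all, against 2 from knockout mice given corn oil. Arrays were chosen by genotype and ligand as labelled, not by any measured value. All 6 mice had the mCAR knockout genotype, corn oil controls included, on a mixed C57BL/6x129Sv background, and were labelled female. No label states their ages. Injections into the abdomen were spaced 24 h apart over 3 days and livers were collected 6 h after the last one. CITCO, a ligand of human CAR, was injected daily at 30 mg/kg. TCPOBOP, a ligand of mouse CAR, was injected 1 time at 3 mg/kg, and corn oil took the place of the later injections. The same treatments were given to wild-type mice and to human CAR mice, which carry an hCAR transgene under the mouse albumin promoter in the mCAR knockout background. Every genotype also had a group on phenobarbital (phenobarbitol in the labels) at 100 mg/kg per day. Each of the 12 groups held 2 mice with 1 Affymetrix array each, and this number limits the precision of every value below.

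CAR is a nuclear receptor of hepatocytes. Once active it enters the nucleus, pairs with the retinoid X receptor and raises transcription of genes for drug oxidation, conjugation and transport, with Cyp2b10 as the standard target in mouse liver. A ligand that acts only through CAR has no receptor to bind in the knockout, so the comparison asks which transcripts nevertheless differ from vehicle, and which differ in the same direction with both compounds.

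Values are log2 expression as deposited, and changes are log2 differences between group means with the standard error (SE) of a limma model fitted to all 24 arrays. A gene was called when its Benjamini-Hochberg adjusted p over 9167 genes was under 0.05. A value is described as dim when it lay under the 40th percentile of its array, a limit between 4.93 and 5.08. Nr1i3, the gene encoding CAR, lay between 5.06 and 5.40 on the 6 knockout arrays and at 6.84 or more on every wild-type array. Median correlations of the 6 arrays with all others were 0.989 to 0.991. The excess of 3' over 5' signal for Actb and Gapdh, which grows as RNA degrades, was 0.47 to 0.54 on ligand arrays and 0.43 to 0.51 on corn oil arrays. Hepatocyte markers were abundant: summed over 19 of them, the linear level was 98320 to 101900 on corn oil and 102400 to 106700 on the ligands. Transcripts that differ between the sexes did not settle the sex label. Of 3 Xist probe sets, 2 were dim on all 24 arrays and the third lay between 4.72 and 5.51, above the limit on 20. Kdm5d, Uty, Usp9y and Zfy2 of the Y chromosome were dim on all 24 as well, and Eif2s3y of the same chromosome lay between 4.33 and 5.30, above the limit on 8. The male-biased Cyp4a12a, Elovl3, Cyp2d9 and Slco1a1 were above the dim limit on all 24 arrays, and Hsd3b5 on 21. Cyp3a16, Hao2 and Sult3a1, all female-predominant in mouse liver, were dim on every one. Cyp3a44 and Cux2, also female-predominant, were above the limit on 2 arrays and 1. Of 21 female-biased genes on the array 16 were above it on 2 or more arrays, and of 22 male-biased genes all 22 were.

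Both ligands together changed few genes in knockout liver. The mean of the TCPOBOP and CITCO groups differed from corn oil in 13 of 9167 genes (0.142%). Cyp4a12a, Hamp2, Usp2 and Parp16 rose, and Marco, Ifi27l2a, Avpr1a, Nfkbia, Slc22a26, Cfp, Ms4a6b, Mcm7 and Mbl1 fell. For each of the 13, all 4 ligand arrays lay on 1 side of both corn oil arrays. Over all genes, 14.9% had the 4 ligand arrays above both corn oil arrays and 14.6% had them below. With unadjusted p under 0.05, 455 genes were higher (4.96%) and 602 lower (6.57%). The median change of all genes was -0.002. The last genes to pass were Nfkbia, Ms4a6b and Mbl1 (limma adjusted p = 0.0344, 0.0344 and 0.0437), and the first not to pass were Stmn1, Trim2 and Hacd4 (0.0724, 0.0798 and 0.084).

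Each ligand alone was tested against the same 2 corn oil arrays, so the single tests and the mean share their controls. For TCPOBOP 7 genes were called (0.0764%): Cyp4a12a, Usp2 and Cyp2c29 were higher and Marco, Avpr1a, Slc22a26 and Mbl1 lower. For CITCO 3 genes were called (0.0327%), with Hamp2 and Parp16 higher and Ifi27l2a lower. Cyclic loess normalisation of the arrays gave 9 for CITCO, 4 higher and 5 lower. Before adjustment (p under 0.05) the counts were 474 higher (5.17%) and 573 lower (6.25%) for TCPOBOP, and 352 higher (3.84%) and 510 lower (5.56%) for CITCO. Nfkbia, Cfp, Ms4a6b and Mcm7 passed for the mean of both ligands and for neither ligand alone.

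**Figure D1:**
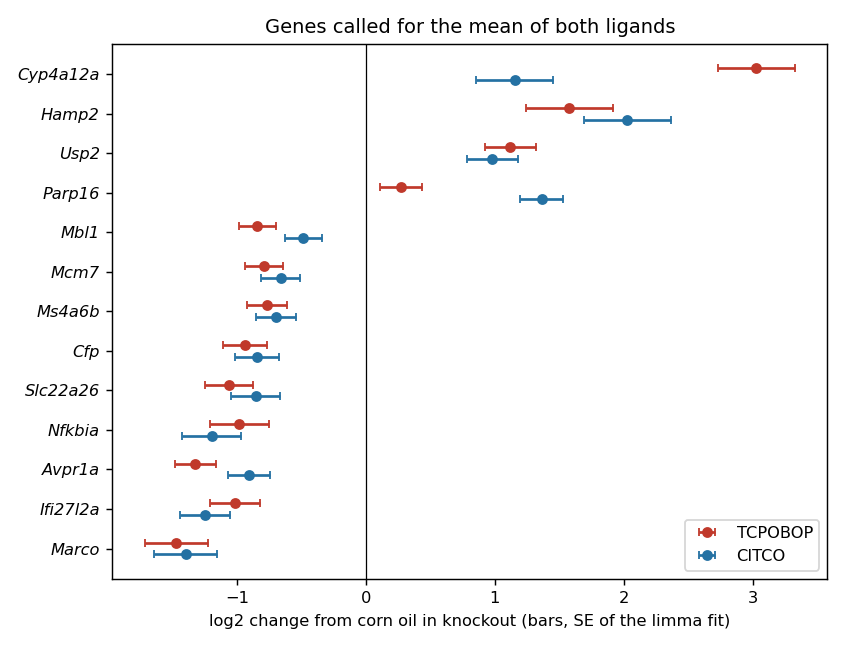
Log2 change from corn oil in knockout liver (horizontal axis) of the 13 genes called for the mean of both ligands, with TCPOBOP in red and CITCO in blue. Points are differences between group means of 2 mice and bars are 1 SE of the limma fit. Every gene has the same sign with both ligands, Cyp4a12a lies at 3.03 and 1.15, and Parp16 at 0.27 and 1.36.

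Cyp4a12a encodes a fatty acid omega-hydroxylase that is male-biased in mouse liver. On corn oil its 2 arrays read 7.53 and 7.63. They read 10.46 and 10.76 on TCPOBOP and 8.65 and 8.82 on CITCO. No ligand array came near the corn oil arrays, and the TCPOBOP arrays were all above the CITCO arrays. The change was 2.09 for the mean of both (4.26-fold, SE 0.26, limma adjusted p = 0.00223), 3.03 for TCPOBOP (SE 0.30, limma adjusted p = 0.000182) and 1.15 for CITCO (SE 0.30, limma adjusted p = 0.219). The means of the 9 groups outside this comparison ran from 9.27 to 11.07, so corn oil lay below all of them, the CITCO arrays also lay below all of them, and the TCPOBOP arrays lay among them. Of 8 measured members of the Cyp4 family, Cyp4a12a was the only 1 called, and the list median was -0.13. Cyp4a14, another omega-hydroxylase and a target of the fatty acid receptor PPARalpha, had 0.48 with TCPOBOP (limma adjusted p = 0.836) and -1.29 with CITCO (limma adjusted p = 0.619), so its mean of -0.41 stands for neither.

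Genes of fatty acid oxidation and other PPARalpha targets had median changes of opposite sign with the 2 ligands. Averaged over the list, the CITCO arrays (8.46 to 8.76) overlapped corn oil (8.73 to 8.97), and the TCPOBOP arrays (9.15 to 9.20) did not. None of the 33 genes measured passed with either ligand. With TCPOBOP 30 had positive changes and the median was 0.23. Before adjustment (p under 0.05) 9 were higher and 0 lower with TCPOBOP, against 5.17% and 6.25% of all genes. With CITCO 24 had negative changes and the median was -0.19, with 0 higher and 8 lower, against 3.84% and 5.56% of all genes. Both share the corn oil arrays. The difference between the ligands, which does not use those arrays, was negative for all 33, with 15 lower before adjustment, a median of -0.42 and none past the adjusted threshold. Over all genes 3.75% were lower with CITCO than with TCPOBOP before adjustment and the median was -0.008. Examples chosen after their values were seen are the pantetheinase gene Vnn1, with 0.52 on TCPOBOP, -1.96 on CITCO and a difference of -2.48 (limma adjusted p = 0.221), and the acyl-CoA thioesterase gene Acot1, with 1.04, -0.44 and a difference of -1.49 (limma adjusted p = 0.374). The mean of both ligands had a median of 0.04 for this list.

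Of 22 male-biased liver genes measured, Cyp4a12a was the only 1 called for the mean of both ligands, 13 had negative changes, and the median was -0.11. With TCPOBOP 14 had positive changes and the median was 0.14, and with CITCO 16 had negative changes and the median was -0.26. Cyp2d9, a male-biased P450, had a change of 0.68 with TCPOBOP and -0.17 with CITCO, neither passing. Across all 24 arrays the genes whose levels tracked Cyp4a12a most closely were Cyp2d9 (Pearson r = 0.81), Cyp2c29 (0.79) and Elovl3, a fatty acid elongase (0.75). The arrays share genotypes and treatments, so these correlations describe the set of arrays only. Of 16 female-biased genes, Hamp2 rose, Slc22a26 fell and the median was -0.12.

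Hamp2 encodes a hepcidin, a member of the family of liver peptides that includes the regulator of iron export. Its corn oil arrays read 8.14 and 7.61, its TCPOBOP arrays 9.04 and 9.86 and its CITCO arrays 9.57 and 10.23. The ligand and corn oil arrays did not overlap, but the 2 mice of each group differed by more than 0.5 on the log2 scale. The change was 1.80 for the mean (3.49-fold, SE 0.29, limma adjusted p = 0.0188), 1.58 for TCPOBOP (limma adjusted p = 0.119) and for CITCO the level was 4.08-fold that on corn oil (limma adjusted p = 0.0483). The probe set is of a type that can bind related transcripts, and a second probe set of Hamp2, with a mean of 4.96 over the 24 arrays, gave 0.24. Knockout mice on phenobarbital lay at 10.01 and 9.92, in the range of the ligand arrays.

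Slc22a26 belongs to a family of organic anion transporters. Its arrays read 7.55 and 7.01 on corn oil, 6.25 and 6.19 on TCPOBOP, and 6.48 and 6.36 on CITCO. The ligand arrays lay together and below both corn oil arrays, and a second, dimmer probe set gave -1.43. Slc22a26 fell by 0.96 for the mean (SE 0.16, limma adjusted p = 0.0235) and by 1.06 with TCPOBOP (limma adjusted p = 0.0449), while CITCO gave -0.86 (limma adjusted p = 0.152). Of 16 organic ion and efflux transporters it was the only 1 called. Abcc3, a basolateral efflux pump induced through CAR, was higher on all 4 ligand arrays (8.78 to 9.12) than on corn oil (8.26 and 8.50), with a change of 0.58 that did not pass (limma adjusted p = 0.0983).

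Parp16, a mono-ADP-ribosyltransferase of the endoplasmic reticulum, was dim on 21 of 24 arrays. It read 4.27 and 4.39 on corn oil, 4.75 and 4.46 on TCPOBOP, and 5.97 and 5.43 on CITCO. Both CITCO arrays were above the dim limit, and the other 4 were not, so the sizes of its changes are uncertain. With 3 arrays of 24 above the limit, both CITCO arrays among them, it passed the filter through the group where it is high. It did not enter the tests under the stricter dim filter, and its calls are given as a description. The mean change was 0.82 (SE 0.14, limma adjusted p = 0.0311), made of 0.27 with TCPOBOP (limma adjusted p = 0.542) and 1.36 with CITCO (limma adjusted p = 0.00311). Its call for the mean of both ligands was therefore carried by 1 ligand.

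Usp2 and Avpr1a were the called members of a list of circadian clock genes and their rhythmic outputs. The clock is a feedback loop in which CLOCK and its partner bind E-box motifs to raise Per, Cry, Nr1d and the factors Dbp, Tef and Hlf. The last 3 bind D-box motifs in further rhythmic genes. Usp2, a deubiquitinase whose liver transcript is rhythmic, read 7.32 and 7.27 on corn oil. It read 8.45 and 8.38 on TCPOBOP and 8.31 and 8.24 on CITCO. The 2 mice of each group nearly coincided. Usp2 rose by 1.05 for the mean (2.07-fold, SE 0.17, limma adjusted p = 0.0188) and by 1.12 with TCPOBOP (limma adjusted p = 0.0449), with 0.98 for CITCO (limma adjusted p = 0.0846). Of the 13 called genes, Usp2 was the only 1 for which both ligand groups were the 2 highest of all 12 group means. The other groups ran from 7.33 to 8.17. A second Usp2 probe set gave 1.68.

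Avpr1a, the vasopressin V1a receptor of hepatocytes, moved the other way. It had a mean of 7.97 on corn oil (SD 0.04, n = 2) and read 6.62 and 6.68 on TCPOBOP, and 7.32 and 6.81 on CITCO. Corn oil was above all 4 ligand arrays, and TCPOBOP was below CITCO on every array. Avpr1a fell by 1.11 for the mean (SE 0.14, limma adjusted p = 0.00223) and by 1.32 with TCPOBOP (limma adjusted p = 0.00154), and CITCO gave -0.91 (limma adjusted p = 0.0591). A second probe set gave -1.04.

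Of 27 measured clock genes and outputs, 8 were higher and 3 lower before adjustment (p under 0.05), against 4.96% and 6.57% of all genes, and only Usp2 and Avpr1a passed after adjustment. The list median was 0.09. Of the genes named next, all but Tef were chosen after their values were seen. The transcription factor gene Dbp read 7.31 and 6.75 on corn oil, 9.43 and 9.05 on TCPOBOP, and 8.57 and 8.60 on CITCO, a change of 1.89 (SE 0.72, limma adjusted p = 0.359). Its ligand arrays were all above corn oil, but the SE is large because Dbp varied within other groups: the knockout phenobarbital mice read 8.61 and 4.48. Tef lay at 8.72 and 8.55 on corn oil and at 9.34 to 9.41 on the 4 ligand arrays, a change of 0.75 (limma adjusted p = 0.206). Per3 had 0.79, the cell cycle kinase gene Wee1 0.73, Nr1d2 0.49, Per2 0.44 and Clock itself -0.51, with limma adjusted p between 0.225 and 0.298. Per1 and Nr1d1 had -0.02 and -0.14. All groups were injected and killed on 1 schedule per the labels, and no label gives the order of killing. Without corn oil replicate 2 the list held 4 higher and 1 lower before adjustment, and no call.

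**Figure D2:**
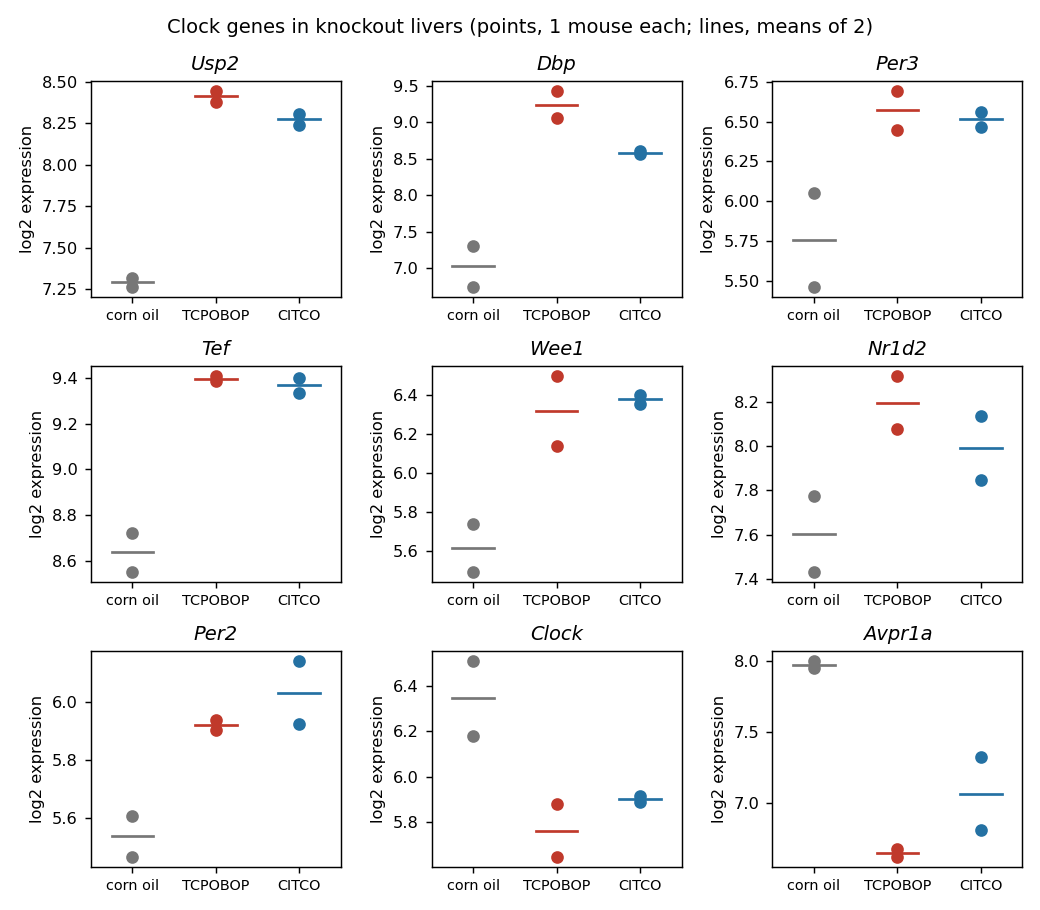
Log2 expression (vertical axes, each with its own range) of 9 clock genes and outputs in knockout liver on corn oil, TCPOBOP and CITCO. Points are single mice and lines are means of 2. Corn oil lies below all ligand arrays for Usp2, Dbp, Per3, Tef, Wee1, Nr1d2 and Per2, and above them for Clock and Avpr1a. Of these 9, only Usp2 and Avpr1a passed the test.

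Promoter windows of these genes were searched for both clock motifs because Usp2, Dbp, Tef and Per3 all lay on the same side of corn oil. The windows, from RefSeq on build GRCm38.p6, span 250 bases before and 50 after each annotated start. The E-box was searched as CACGTG, which reads the same on both strands, and the D-box as TTATGTAA or TTACGTAA on either strand. Over 32851 windows, 7.15% held the E-box and 1.06% the D-box. Of the 11 called genes with a window, 0 held an E-box and 1, Slc22a26, a D-box. Of 11 clock list genes with an unadjusted p under 0.05, 9 had a window, of which Tef and Tars, a threonyl-tRNA synthetase gene, held an E-box and Per3 held 2 D-boxes. These matches describe the letters of the windows and nothing more. The 250 bases before the start are given for Usp2, the called gene, and for Per3 and both Tef starts, which carry matches, with the motifs in capitals. The Usp2 stretch is chr9:44084670-44084919 on the + strand, that of Per3 chr4:151044666-151044915 on the - strand, and those of Tef chr15:81802423-81802672 and chr15:81811164-81811413 on the + strand.
Usp2 (no match): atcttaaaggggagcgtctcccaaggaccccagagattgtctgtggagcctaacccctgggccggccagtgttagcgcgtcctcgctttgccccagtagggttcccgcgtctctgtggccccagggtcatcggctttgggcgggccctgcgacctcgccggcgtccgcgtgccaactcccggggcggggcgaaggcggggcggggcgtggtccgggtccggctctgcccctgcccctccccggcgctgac
Per3 (D-boxes in capitals): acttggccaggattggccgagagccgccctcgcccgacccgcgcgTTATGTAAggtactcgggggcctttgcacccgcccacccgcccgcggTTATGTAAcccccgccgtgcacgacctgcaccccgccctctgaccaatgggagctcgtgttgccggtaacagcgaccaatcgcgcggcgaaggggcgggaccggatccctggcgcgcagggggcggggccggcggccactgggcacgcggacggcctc
Tef first start (E-box in capitals): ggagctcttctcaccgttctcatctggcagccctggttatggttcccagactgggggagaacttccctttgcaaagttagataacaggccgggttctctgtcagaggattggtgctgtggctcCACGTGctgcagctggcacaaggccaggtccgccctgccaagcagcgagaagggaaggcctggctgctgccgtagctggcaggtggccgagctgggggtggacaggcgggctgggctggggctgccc
Tef second start (E-box in capitals): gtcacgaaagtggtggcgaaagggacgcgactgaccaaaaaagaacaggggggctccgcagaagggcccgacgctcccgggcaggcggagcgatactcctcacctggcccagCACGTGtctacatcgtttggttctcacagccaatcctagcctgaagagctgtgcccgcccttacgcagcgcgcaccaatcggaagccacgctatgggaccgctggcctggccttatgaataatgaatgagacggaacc
The genes on the same side of corn oil thus differed in these motifs: Usp2 and Dbp had neither, Per3 had D-boxes only and Tef had an E-box at each start.

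Marco, a scavenger receptor of macrophages, had the largest fall of the 9 genes that fell. Its corn oil arrays read 7.33 and 7.28. TCPOBOP arrays read 5.88 and 5.79, and CITCO arrays 5.61 and 6.21. Both corn oil arrays were more than 1 log2 unit above every ligand array. Marco fell by 1.44 for the mean (SE 0.21, limma adjusted p = 0.0101) and by 1.47 with TCPOBOP (limma adjusted p = 0.0449), with -1.40 for CITCO (limma adjusted p = 0.0591). The 9 other group means ran from 5.14 to 6.22, so it was the corn oil group of the knockout that stood apart from all 11 others. The genes most like it over the 24 arrays were Rab8b (Pearson r = 0.72), Tmem98 (0.71) and H2-D1 (0.695).

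**Figure D3:**
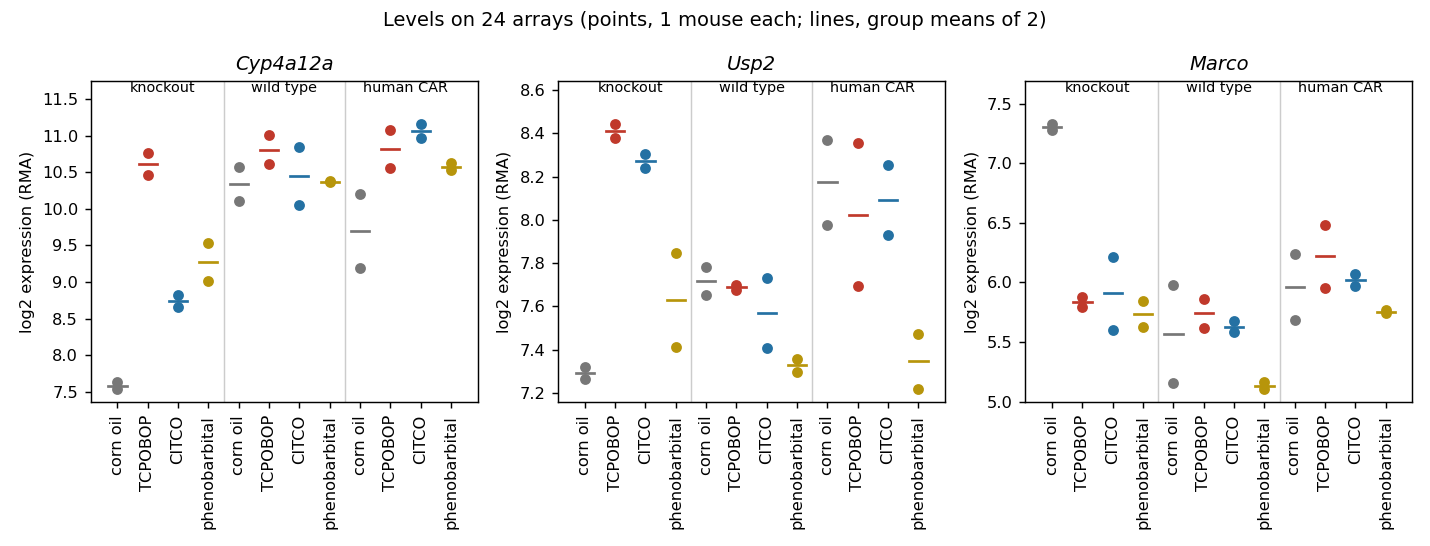
Log2 expression (vertical axes, each with its own range) of Cyp4a12a, Usp2 and Marco on 24 arrays, by genotype and treatment. Points are single mice and lines are means of 2. Knockout corn oil is the lowest group for Cyp4a12a (7.53 and 7.63) and for Usp2 (7.32 and 7.27), and the highest for Marco (7.33 and 7.28).

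Other Kupffer cell markers lay on the same side. Kupffer cells are the resident macrophages of the liver sinusoids. Of 31 markers listed, 29 were measured, 27 had negative changes and 23 were lower at an unadjusted p under 0.05, against 6.57% of all genes. For 22 of the 29 all ligand arrays were below both corn oil arrays, against 14.6% of all genes. Marco and Cfp, the gene for the complement regulator properdin, were the 2 called. The median change was -0.63, with -0.80 for TCPOBOP and -0.55 for CITCO, and that of all genes -0.002. Summed on the linear scale, the 29 markers reached 6601 to 7611 on corn oil, 3905 to 5130 on TCPOBOP and 4857 to 5093 on CITCO. The knockout phenobarbital arrays were at 3124 to 5002. Corn oil arrays of the other genotypes were at 5465 to 7109 in wild type and at 4233 to 5395 in human CAR mice. Knockout corn oil was thus above the human CAR range and overlapped that of wild type. In bulk liver, fewer cells of a type and less RNA per cell cannot be told apart.

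Single members of this list are described next, and not all of them are specific to Kupffer cells. Apart from Cd5l, those named here were chosen after their values were seen. Clec4f, a lectin of Kupffer cells, read 8.71 and 8.51 on corn oil and 7.36 to 8.08 on the ligand arrays, a change of -0.81 (limma adjusted p = 0.292). Cd163, the haptoglobin-hemoglobin receptor, read 6.71 and 5.96 on corn oil and 5.39 to 5.53 on the ligands, a change of -0.88 (limma adjusted p = 0.0904). Folr2, a folate receptor, had -0.81 (limma adjusted p = 0.0988), Cd5l, a secreted macrophage protein, -0.89 (limma adjusted p = 0.265), and C1qa, C1qb and C1qc, the chains of complement C1q, -0.87, -0.92 and -1.01. None of these passed, although their ligand arrays were all below corn oil in each case named with arrays. Msr1, another macrophage scavenger receptor, had 0.003, and Id3, a transcription regulator, had 0.97 (limma adjusted p = 0.447). Without corn oil replicate 1 the median was -0.50 with 13 lower at an unadjusted p under 0.05 and 0 called, and without TCPOBOP replicate 2 it was -0.46 with 17 and 0. Without corn oil replicate 2 it was -0.88. Array weights, which let arrays count unequally, gave 17 called, but the same setting called 442 of all 9167 genes.

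**Figure D4:**
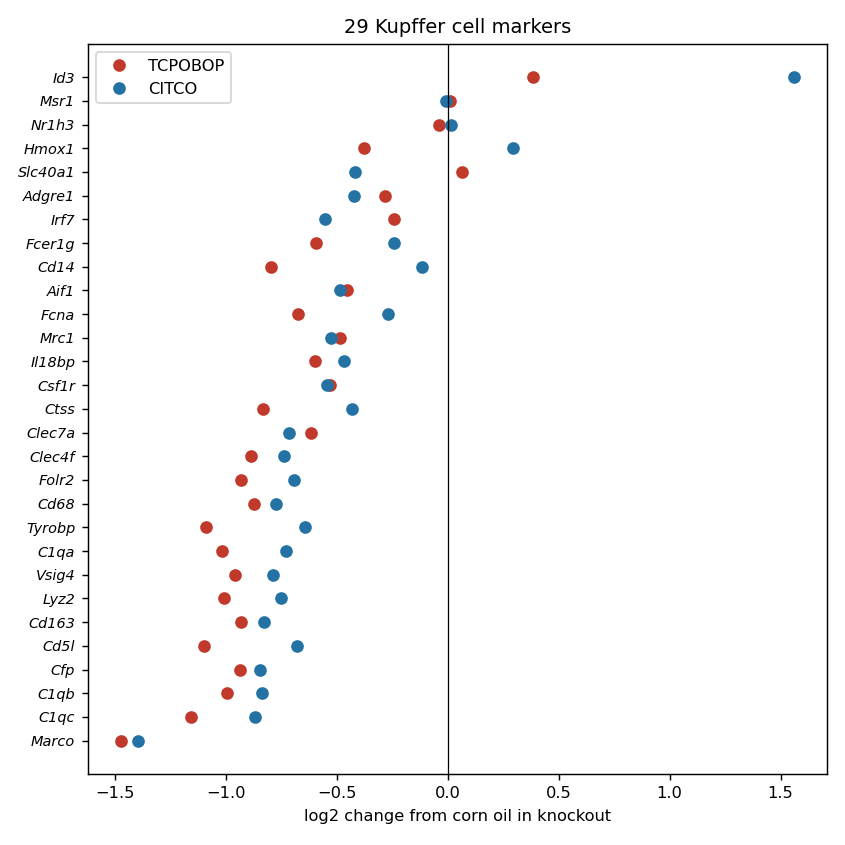
Log2 change from corn oil in knockout liver (horizontal axis) of 29 Kupffer cell markers, with TCPOBOP in red and CITCO in blue. Points are differences between means of 2 mice. Most points lie left of 0, Marco at the far left at -1.47 and -1.40, and Id3 at the far right at 0.38 and 1.56. Only Marco and Cfp passed for the mean of both ligands.

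Markers of other non-parenchymal cells had medians nearer to that of all genes. The median was -0.15 for 22 liver endothelial markers, of which 5 were lower at an unadjusted p under 0.05, and -0.03 for 20 stellate cell markers, of which 6 were. These are 22.7% and 30% of the lists, against 6.57% of all genes, and 0 were higher in either list. The median was 0.11 for 13 neutrophil and monocyte markers, 0.14 for 10 lymphocyte markers and 0.10 for 4 cholangiocyte markers. None of these lists held a called gene. Hepatocyte markers, 19 in all, had a median of 0.06 with none past an unadjusted p of 0.05.

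Cfp and Ms4a6b are immune cell genes, and Mbl1 and Nfkbia belong to innate defence. Cfp read 6.75 and 6.66 on corn oil, 5.91 and 5.63 on TCPOBOP, and 5.85 and 5.87 on CITCO, and fell by 0.89 (SE 0.15, limma adjusted p = 0.0235). Ms4a6b, a membrane protein of leukocytes, read 5.48 and 5.28 on corn oil and was dim on all 4 ligand arrays (4.53 to 4.83). Its fall of 0.73 (limma adjusted p = 0.0344) is therefore a fall into the dim range, and the size is uncertain. The mean of Ms4a6b over all arrays of the series was 4.68, under the dim limit. Both corn oil arrays were above that limit, which alone was enough to pass the filter. Ms4a6b did not enter the tests under the stricter dim filter, and its call is given as a description. Mbl1, the mannose-binding lectin A of hepatocytes, read 10.20 and 10.05 on corn oil, 9.39 and 9.17 on TCPOBOP, and 9.66 and 9.61 on CITCO. It fell by 0.67 (SE 0.12, limma adjusted p = 0.0437), and by 0.84 with TCPOBOP (limma adjusted p = 0.0449), with -0.49 for CITCO (limma adjusted p = 0.29).

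Collectins and complement genes, 23 measured, had 22 negative changes and a median of -0.31. Of them 13 were lower and 0 higher before adjustment, against 6.57% and 4.96% of all genes, and Cfp and Mbl1 passed. Cfp, C1qa, C1qb, C1qc and Fcna are also on the Kupffer list, and Mbl1 and other genes among the 13 are not. The hepatocyte products Clu, Vtn, Cfi and Hc, named for their abundance, lay between -0.21 (Cfi) and -0.05 (Hc), none passing. They do not stand for all hepatocyte genes of the list, as Mbl1 fell. Leaving out any single array other than TCPOBOP replicate 1 left this list with 0 called.

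Nfkbia encodes the inhibitor that holds NF-kappaB in the cytoplasm and is itself induced by NF-kappaB. It read 10.38 and 10.46 on corn oil, 9.60 and 9.28 on TCPOBOP, and 9.26 and 9.19 on CITCO. Nfkbia fell by 1.09 (SE 0.20, limma adjusted p = 0.0344), and its other probe sets had changes of -0.56, -1.21 and -1.29. Ifi27l2a, an interferon-inducible gene, read 7.25 and 7.32 on corn oil, 6.45 and 6.09 on TCPOBOP, and 5.89 and 6.19 on CITCO. Ifi27l2a fell by 1.13 for the mean (SE 0.17, limma adjusted p = 0.0101) and by 1.25 with CITCO (limma adjusted p = 0.0356), with -1.02 for TCPOBOP (limma adjusted p = 0.0714). Of 19 interferon response genes on the list, which does not hold Ifi27l2a, 0 passed by limma, and the median was -0.24. Before adjustment (p under 0.05) 7 were lower and 0 higher, against 6.57% and 4.96% of all genes. Bst2, an antiviral membrane protein, had -0.67 (limma adjusted p = 0.305), and Psmb8, a subunit of the immunoproteasome, had -0.46 (limma adjusted p = 0.36). Acute phase proteins, 30 measured, had a median of -0.21 and 0 passing by limma. Of them 1 was higher and 6 lower before adjustment, against 4.96% and 6.57% of all genes. The most abundant acute phase proteins, Hp, Hpx, Saa1 and Fgb, lay between -0.14 and -0.08.

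Mcm7, a subunit of the helicase that opens DNA for replication, read 6.78 and 6.97 on corn oil, 6.22 and 5.95 on TCPOBOP, and 6.14 and 6.29 on CITCO. It fell by 0.73 (SE 0.13, limma adjusted p = 0.0311). Its probe set can bind related transcripts, and 3 other Mcm7 probe sets gave -0.45, -0.29 and -0.12. Of 27 S phase and mitosis genes Mcm7 was the only 1 called, and the median was -0.11. Before adjustment 6 were lower and 0 higher, against 6.57% and 4.96% of all genes. Stmn1, a microtubule regulator of dividing cells, was just outside the threshold at -0.75 (limma adjusted p = 0.0724).

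The genes CAR is known to induce did not pass in these livers, with 1 exception for 1 ligand. Cyp2b10 read 5.42 and 4.81 on corn oil and 4.45 to 4.90 on the ligand arrays, all 4 of them dim, a change of -0.39 (95% interval -1.09 to 0.32, limma adjusted p = 0.668). Cyp3a11 had 0.07 (95% interval -0.21 to 0.35, limma adjusted p = 0.845), Cyp2c55 0.43 (limma adjusted p = 0.676) and Cyp1a2 0.04 (limma adjusted p = 0.942). Cyp2c29, a P450 that CAR induces, read 8.13 and 7.83 on corn oil, 8.64 and 9.41 on TCPOBOP, and 8.35 and 8.16 on CITCO. Cyp2c29 rose by 1.05 with TCPOBOP (limma adjusted p = 0.0449), and had 0.28 with CITCO (limma adjusted p = 0.647). Wild-type mice on corn oil lay at 10.97 and 11.02, above all of these arrays.

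Of 23 drug-metabolising P450s and partners, 0 passed by limma for the mean of both ligands, 3 were higher and 2 lower before adjustment, and the median was 0.11. Over all genes 4.96% were higher and 6.57% lower before adjustment for that mean. In wild type the same 2 ligands raised 7 of the 23, with a median of 0.49, where 0.916% of all genes rose and 0.458% fell. Of 40 conjugation enzymes, 0 passed by limma in knockout, 7 were higher before adjustment and the median was 0.12. With TCPOBOP 34 had positive changes and the median was 0.18. Before adjustment 13 were higher and 0 lower with TCPOBOP, against 5.17% and 6.25% of all genes. With CITCO 18 had positive changes and the median was -0.01, with 3 higher and 2 lower, against 3.84% and 5.56% of all genes. CITCO minus TCPOBOP was negative for 34 of the 40, with a median of -0.22 and none passing. Before adjustment 9 were lower and 2 higher with CITCO than with TCPOBOP, against 3.75% and 4.07% of all genes. In wild type 8 rose and 1 fell, with a median of 0.46. The bile acid enzyme Cyp7a1 had -0.73 (limma adjusted p = 0.705) and the pregnane X receptor gene Nr1i2 -0.12 (limma adjusted p = 0.763). Gsta2, a glutathione transferase, read 4.32 and 5.30 on corn oil and 5.93 to 7.72 on the ligand arrays, a change of 1.89 that did not pass (limma adjusted p = 0.104). Of 19 cholesterol synthesis genes 17 had negative changes, with a median of -0.30 and 0 past an unadjusted p of 0.05.

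Differences between the ligands were tested without the corn oil arrays. The compounds differed in dose and in number of injections, so these values set 2 regimens side by side and not 2 compounds at matched doses. CITCO differed from TCPOBOP in 2 genes (0.0218%), with 373 higher (4.07%) and 344 lower (3.75%) before adjustment (p under 0.05). Cyp4a12a was lower with CITCO by 1.87 on the log2 scale (CITCO minus TCPOBOP -1.87, SE 0.30, limma adjusted p = 0.0483), and Parp16, dim on all TCPOBOP arrays, was higher by 1.09 (SE 0.17, limma adjusted p = 0.0483). Cyclic loess normalisation left 1 call, which was higher with CITCO. The other 11 genes called for the mean did not differ between ligands by the test. For Usp2 the difference was -0.14 (95% interval -0.56 to 0.28) and for Marco 0.07 (-0.44 to 0.59). Avpr1a had 0.42 (0.08 to 0.76, limma adjusted p = 0.535) and Mbl1 0.36 (0.05 to 0.66, limma adjusted p = 0.535), intervals that leave out 0 before adjustment over all genes.

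The ligand effect was next compared between genotypes as the difference of the mean changes. Between knockout and wild type it differed in 46 genes (0.502%), 5 with the higher change in knockout and 41 with the lower. Among the genes described above, Cyp4a12a (1.80, SE 0.37, limma adjusted p = 0.0387), Usp2 (1.14, SE 0.24, limma adjusted p = 0.0447), Marco (-1.55, SE 0.30, limma adjusted p = 0.0292), Avpr1a (-0.96, SE 0.20, limma adjusted p = 0.0398) and Mcm7 (-1.06, SE 0.18, limma adjusted p = 0.0124) differed. In wild type their changes were 0.29, -0.09, 0.11, -0.15 and 0.34. Mbl1 was called in both genotypes, with -0.68 in wild type (limma adjusted p = 0.00988), and its difference was 0.01. CAR targets that rose in wild type had lower changes in knockout: Cyp2b10 had -5.71 (limma adjusted p = 1.24e-05) and Cyp2c55 had -2.99 (limma adjusted p = 0.0189). D17H6S56E-5, Prom1 and Mcm6 had -2.11, -1.97 and -1.84 (limma adjusted p = 2.72e-05, 0.0124 and 0.00718). Gstp3, a glutathione transferase, had 3.69 (limma adjusted p = 0.0387). Its change in knockout was -0.02 (limma adjusted p = 0.993), and in wild type it fell by 3.71.

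Human CAR mice also lack mouse CAR, and their transgene is expressed where the albumin promoter is active. By limma 0 genes (0%) differed in ligand effect between knockout and human CAR mice, with 241 higher and 374 lower before adjustment (p under 0.05). The smallest adjusted p was 0.0733. The values nearest to the threshold included Hamp2 at 2.34, Ifi27l2a at -1.39 and Cfp at -1.20 (limma adjusted p = 0.0733 each), Marco at -1.59 (limma adjusted p = 0.0961) and Usp2 at 1.17 (limma adjusted p = 0.173). In human CAR mice themselves the mean of both ligands changed 0 genes by limma (0%), with 262 higher and 281 lower before adjustment. That mean, also used in the difference from knockout, joins CITCO, a ligand of human CAR, with TCPOBOP, a ligand of mouse CAR. Averaged over 23 drug-metabolising P450s and partners, human CAR arrays were at 9.47 to 9.48 on CITCO and 8.72 to 8.73 on TCPOBOP. On corn oil they were at 8.75 to 9.05. Each ligand alone was not tested in human CAR mice. The change of Cyp4a12a in human CAR mice was 1.25 (limma adjusted p = 0.236), and it differed from that in knockout by 0.84 (limma adjusted p = 0.721).

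Because every change from corn oil in knockout rests on the 2 corn oil mice, their own level was set beside the other groups. Of the 13 called genes, knockout corn oil had the highest of the 12 group means in 8 and the lowest in 2. Hamp2, Parp16 and Mcm7 were the exceptions, with corn oil ranked 11, 10 and 2 from the top. Over all genes tested, knockout corn oil was highest in 10.2% and lowest in 11.4%. The same arrays made the calls, so such positions are partly built in, and an effect of both ligands and a departure of the 2 corn oil mice cannot be told apart for these genes. Tested against the mean of wild-type and human CAR corn oil mice, knockout corn oil differed in 14 genes (0.153%), 5 higher and 9 lower. Cyclic loess normalisation gave 10, with 5 higher and 5 lower. This comparison is also one between genotypes. An effect of genotype and a departure of the 2 corn oil mice cannot be told apart by it.

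Among the genes described above, Marco was 1.54 higher in knockout corn oil (SE 0.21, limma adjusted p = 0.0029), Slc22a26 1.14 higher (limma adjusted p = 0.00375) and Avpr1a 0.97 higher (limma adjusted p = 0.00384), while Cyp4a12a was lower, at -2.44 (SE 0.26, limma adjusted p = 0.000254). The ligand comparison uses the same knockout corn oil arrays, so the 2 sets of values are not independent. Usp2 had -0.65 (limma adjusted p = 0.224) and Mbl1 0.33 (limma adjusted p = 0.601). The phenobarbital mice of the knockout, which enter neither comparison, read 9.53 and 9.01 for Cyp4a12a, 5.85 and 5.63 for Marco, 7.30 and 7.65 for Avpr1a and 7.85 and 7.41 for Usp2. For each of these genes the phenobarbital values lie on the ligand side of both corn oil arrays. Both Usp2 values and the Avpr1a value of 7.65 lie between corn oil and every ligand array. The other genes named were Cyp2c29 at -2.87 (limma adjusted p = 3.49e-08), Cyp2c37 at -4.21 (dim on both knockout corn oil arrays, so the size is uncertain), Cyp2c50 at -2.41, the asparagine synthetase gene Asns at -2.57, Tox at 0.70 and Nt5e at 0.64.

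**Figure D5:**
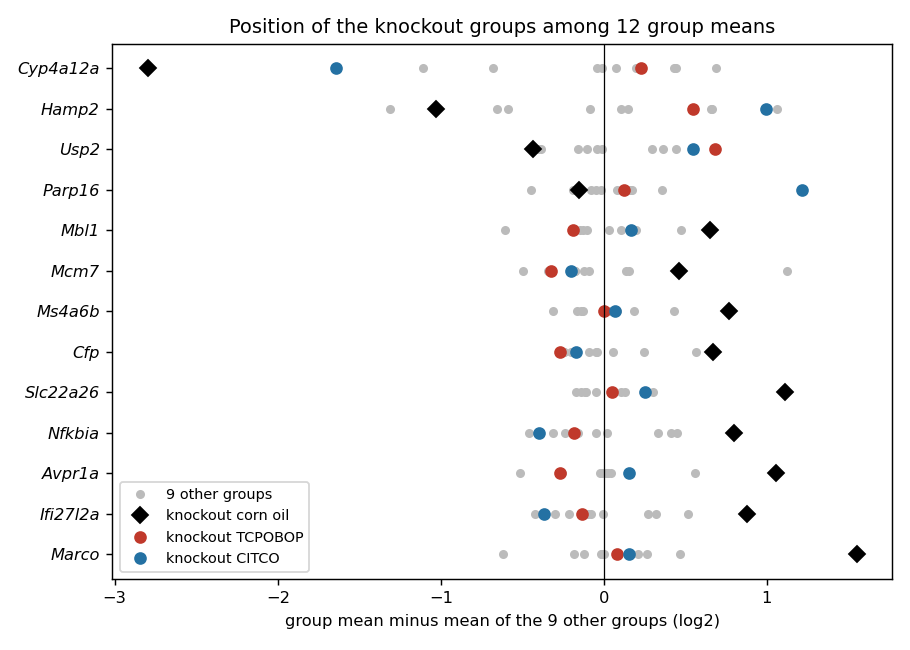
Group means of the 13 called genes, each minus the mean of the 9 groups outside the comparison (log2, horizontal axis). Black diamonds are knockout corn oil, red points knockout TCPOBOP, blue points knockout CITCO and grey points the 9 other groups. The corn oil mean lies outside the grey points for 10 of the 13 genes, and for Usp2 both ligand means lie above them.

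The number of calls depended on single mice. Leaving out 1 of the 6 arrays gave 6 called genes without CITCO replicate 1, 5 without CITCO replicate 2, 6 without corn oil replicate 1, 3 without corn oil replicate 2, 17 without TCPOBOP replicate 1 and 2 without TCPOBOP replicate 2. Cyp4a12a was called in all 6 cases, with changes of 2.02 to 2.17, and no other gene was. Avpr1a was called in 5 of the 6, losing the call without corn oil replicate 2 (-1.09, limma adjusted p = 0.0681). Marco lost the call without either corn oil array or without TCPOBOP replicate 2, with changes of -1.41 to -1.46 in those cases. Usp2 passed only when TCPOBOP replicate 1 was the array left out, and its change stayed between 1.02 and 1.08 over the 6 cases. Slc22a26 had -0.69 without corn oil replicate 1. In each of these fits the remaining mouse of the group was assumed to vary like the other groups.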

How the data were processed

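RNA from 24 mouse livers was measured on Affymetrix arrays, 1 mouse per array. The deposited values are log2 expression which the authors made by RMA, per the submitters' processing notes (R 2.15.0). RMA corrects background and puts all arrays on 1 distribution. This can hide a shift shared by all genes. Of 22690 probe sets, 20380 had 1 gene symbol, 691 several and 1555 none in the table used, and 64 were controls. Each of 12393 genes was represented by its probe set of highest mean, and the 9167 that exceeded their array's 40th percentile on 2 or more arrays entered the tests.

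The model, from limma 3.58.1 (R 4.3.3), was fitted to 12 group means over 24 arrays, leaving 12 residual degrees of freedom, with Benjamini-Hochberg adjustment over all genes and a threshold of 0.05. The 2 arrays of a group are separate mice. On data simulated for the mean of both ligands, 91.8% of 2-fold and 99.2% of 4-fold changes were recovered among 9167 genes, with 5.25% false calls. In each simulated run 200 genes were changed at once, with noise independent between genes. The deposited data held 13 calls for this comparison, so these rates may not apply to them. Cyp2c37, with a change of 2.77, did not pass in the deposited data. Genes named by rule are those called, the next in order of p, targets of CAR and the most abundant members of each list. Further list members, among them Kupffer cell markers and clock genes, were named after their values were seen. The comparison and the gene lists were chosen with earlier results of these data known. Alternatives covered normalisation, the dim filter, the variance model, array weights, the samples fitted, a replicate block and single arrays left out. Promoters are RefSeq sequence of GRCm38.p6. Figures used matplotlib 3.10.9.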

Additional observations from a re-analysis of the deposited data

Results flagged for a closer look

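The ligand effect differed between knockout and wild type, by the test of the difference itself in limma, for 14 of the genes named. The values are knockout minus wild type on the log2 scale. The CAR targets Cyp2b10 and Cyp2c55 had -5.71 (adjusted p = 1.24e-05) and -2.99 (adjusted p = 0.0189). Genes of proliferating cells had lower changes in knockout, with Stmn1 at -1.80 (adjusted p = 0.000609), Mcm6 at -1.84 (adjusted p = 0.00718) and Mcm7 at -1.06 (adjusted p = 0.0124). D17H6S56E-5 had -2.11 (adjusted p = 2.72e-05) and Prom1, a membrane glycoprotein gene, -1.97 (adjusted p = 0.0124). Marco had -1.55 (adjusted p = 0.0292) and Avpr1a -0.96 (adjusted p = 0.0398).

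Higher changes in knockout were found for Gstp3 at 3.69 (adjusted p = 0.0387), Cyp4a12a at 1.80 (adjusted p = 0.0387), Usp2 at 1.14 (adjusted p = 0.0447), Sardh, a sarcosine dehydrogenase gene, at 0.79 (adjusted p = 0.0385) and Acsf3, an acyl-CoA synthetase gene, at 0.55 (adjusted p = 0.0277). For Gstp3, Sardh and Acsf3 the wild-type changes were -3.71, -0.63 and -0.47, and the knockout changes of -0.02, 0.17 and 0.08 did not pass.

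Within knockout, CITCO minus TCPOBOP differed for Cyp4a12a at -1.87 and for Parp16 at 1.09 (limma adjusted p = 0.0483 each). Parp16 was dim on both TCPOBOP arrays and passed the filter through CITCO. The doses and numbers of injections of these ligands differed as well. Groups of 2 mice are too small for a check of outlying arrays within a group.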

How the results depend on the processing

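Counts of called genes are given against those of the report, 13 for both ligands, 7 for TCPOBOP, 3 for CITCO, 2 between ligands, 46 and 0 for knockout minus wild type and minus human CAR, and 14 for knockout corn oil. Cyclic loess gave 21, 12, 9 and 1 for the first 4. Array weights gave 442, 207, 270, 10, 119 and, for corn oil, 62. Fitting only the groups compared gave 96, 76, 47, 10, 114, 1 and 29. Leaving out the 2 phenobarbital arrays of lowest median correlation with the others (human CAR replicate 1 at 0.97 and knockout replicate 2 at 0.98, the next arrays being at 0.981 and 0.982) gave 54 for both ligands, 23 for TCPOBOP, 39 for CITCO, 73 against wild type and 23 for corn oil. The stricter dim filter left 0 for CITCO (651 at an unadjusted p under 0.05 in limma) and 0 between ligands (570), where no filter also left 0 (883) and a robust variance trend 1. All 13 genes kept their call under loess, weights, the replicate block and without the 2 arrays, and 12 with the groups compared alone, where Parp16 did not pass.

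Same-numbered arrays showed no clear pairing among the knockout groups compared. Their correlations were 0.128, -0.029 and 0.074 between corn oil and TCPOBOP, corn oil and CITCO, and the ligands. Over all 12 groups such correlations ran from -0.449 to 0.424, so this check cannot exclude pairing in part of the series. The replicate block gave 20 for both ligands, 12 for TCPOBOP, 0 between ligands (757 at an unadjusted p under 0.05 in limma) and 1 against human CAR.

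With 1 array left out, counts ran from 2 to 17 for both ligands, 2 to 4 for TCPOBOP, 0 to 6 for CITCO, 0 to 1 between ligands, 10 to 36 against wild type, 0 to 7 against human CAR and 4 to 24 for corn oil. CITCO had 0 without either corn oil array (605 and 484 before adjustment), and corn oil 4 and 5 without its own replicate 1 or 2. Cyp1a2 turned from 0.04 to -0.008 without CITCO replicate 1 and to -0.029 without TCPOBOP replicate 1, its highest value being 0.112 without TCPOBOP replicate 2. The causes were not tested. With 2 mice a group, precision is limited by their number, and dim genes such as Parp16 and Ms4a6b have uncertain sizes.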

Other observations

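A few transcripts set the knockout groups apart without passing the ligand test, and were chosen after their values were seen. Cyp2c37, a P450 of the Cyp2c cluster, read 3.53 and 3.69 on knockout corn oil and 6.03 to 6.72 on the 4 ligand arrays, a difference of means of 2.77 (limma adjusted p = 0.235). Both corn oil values were dim, so this size is uncertain. Wild-type corn oil mice read 8.36 and 8.31. Cyp2c39, a neighbour in the same family, had -1.71 (limma adjusted p = 0.388), so members of this family lay on both sides of corn oil.

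Hprt, a purine salvage gene often used as a reference transcript, read 7.62 and 7.83 on knockout corn oil and 7.56 and 7.90 on TCPOBOP. It read 8.72 and 8.65 on CITCO and 8.89 and 8.68 on phenobarbital. CITCO minus TCPOBOP was 0.96 (limma adjusted p = 0.221). Rad51b, a DNA repair gene, had the opposite order, with 7.32 and 6.69 on corn oil, 6.65 and 5.92 on TCPOBOP, 4.84 and 4.19 on CITCO and 4.64 and 3.67 on phenobarbital. CITCO minus TCPOBOP was -1.77 (limma adjusted p = 0.429).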
